A study of Rattus norvegicus with 12 samples.

Results

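The proteasome is the barrel-shaped protease that degrades ubiquitin-tagged proteins, and its constitutive subunits are examined here in cultured cardiomyocytes given forms of the transcription factor MEF2C. The subunits were taken by gene symbol, as every probe set with the single symbol Psma, Psmb, Psmc, Psmd or Psme followed by a number, without the interferon-inducible subunits Psmb8, Psmb9 and Psmb10. This gave 38 genes of the 14497 gene symbols with a single-gene probe set. Psma3 and Psma8 were not among them, Psma3 because its probe set also carries the symbol Psma3l. The cells were ventricular cardiomyocytes of newborn Wistar rats, plated for 44 h in medium with serum, kept for 24 h without serum and measured on Affymetrix arrays, 3 per group. The groups were cultures transduced with adenovirus for mef2Cγ+ (γ+), mef2Cγ- (γ-) or mef2Cγ+23/24 (23/24), and untreated control cultures. The γ segment of MEF2C is included or left out by alternative splicing and is known as a repressor domain. The labels do not define 23/24, and no virus without an insert is among the groups, so each difference from control includes any effect of the adenovirus.

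In the proteasome, rings of α subunits (Psma genes) gate a chamber formed by rings of β subunits (Psmb genes), of which Psmb5, Psmb6 and Psmb7 carry the chymotrypsin-like, caspase-like and trypsin-like active sites. A regulatory particle binds the end of the barrel: ATPases of its base (Psmc genes) unfold the substrate, and the lid (most Psmd genes) holds Psmd14, the enzyme that removes ubiquitin chains. Other caps can take its place, namely the activators made from Psme1 and Psme2 (PA28αβ), from Psme3 (PA28γ) or from Psme4 (PA200). In the heart the ubiquitin-proteasome system turns over sarcomere and signalling proteins. Under interferon, Psmb8, Psmb9 and Psmb10 replace Psmb5, Psmb6 and Psmb7 in newly made particles, and Psme1 and Psme2 are also known as interferon-inducible. The symbol rule therefore takes in more than strictly constitutive subunits, and it also takes in Psmb11, a catalytic subunit of the thymus.

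Proteasome genes are known to be induced together through the antioxidant response element by the factor Nrf1 (gene Nfe2l1), and interferon-inducible genes through the interferon-stimulated response element. The 250 bases before the annotated start were therefore searched on both strands, in the RefSeq promoters of the GRCr8 assembly, which held 33 of the 38 genes. The antioxidant element core TGACNNNGC was found in 6 of the 33 (18.2%, against 10.1% of all 33469 promoters), in Psmb2, Psmb5, Psmb6, Psmd1, Psmd9 and Psme4. The interferon element core, GAAA repeated after any 2 bases, was found in 4 (12.1%, against 3.41% of all promoters), in Psma4, Psmb3, Psmd7 and Psme2. The CCAAT box was found in 16 of the 33 (48.5%, against 34.0%), the gamma-activated site core TTCNNNGAA in 3 (9.09%, against 7.67%) and the MEF2 site consensus in 0 (against 0.523%). The 100 bases before the start are shown for subunits whose values are described below: constitutive catalytic subunits and a β subunit with the antioxidant core, an assembly chaperone and an activator with the same core, and, with the interferon core, Psme2 and, for contrast, the inducible Psmb10. Each reads 5′ to 3′ toward the gene, and capitals mark the core named with it.
Psmb5, antioxidant core, chr15:32047380-32047479, minus strand: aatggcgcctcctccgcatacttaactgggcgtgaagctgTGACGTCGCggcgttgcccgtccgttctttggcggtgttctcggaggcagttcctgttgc
Psmb6, antioxidant core, chr10:55737788-55737887, plus strand: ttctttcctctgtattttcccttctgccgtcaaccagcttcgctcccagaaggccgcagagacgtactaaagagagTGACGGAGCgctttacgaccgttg
Psmb2, antioxidant core, chr5:144254958-144255057, plus strand: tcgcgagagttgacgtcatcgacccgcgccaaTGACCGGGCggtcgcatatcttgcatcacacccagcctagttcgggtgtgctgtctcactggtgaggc
Psmd9, antioxidant core, chr12:39018265-39018364, minus strand: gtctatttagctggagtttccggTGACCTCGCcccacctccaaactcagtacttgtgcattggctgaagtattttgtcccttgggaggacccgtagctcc
Psme4, antioxidant core read on the opposite strand, chr14:108706543-108706642, plus strand: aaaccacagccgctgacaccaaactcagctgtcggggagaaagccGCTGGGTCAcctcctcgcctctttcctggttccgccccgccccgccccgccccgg
Psme2, interferon core, chr15:33052752-33052851, minus strand: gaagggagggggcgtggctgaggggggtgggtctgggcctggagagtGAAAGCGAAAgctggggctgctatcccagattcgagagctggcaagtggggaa
Psmb10, interferon core at 2 places, chr19:50743293-50743392, minus strand: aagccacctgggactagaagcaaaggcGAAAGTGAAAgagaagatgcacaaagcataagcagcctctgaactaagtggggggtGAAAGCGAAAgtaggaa
In Psmb2 the antioxidant core shares its first base with a CCAAT box. Psmd9 has a second antioxidant core upstream of the stretch shown. Psmd7 has its interferon core within the bases that such a stretch would cover, but is not shown. Among the inducible subunits, Psmb10 alone had a match to the interferon core. Psmb8 had a CCAAT box and a gamma-activated site core, and Psmb9 had no match to any motif. Whether the promoter of Psmb9 was among those searched was not checked. These are matches of letters in a window, and no binding was measured.

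All values are taken as log2 intensities, a scale judged from their range, so a difference of 1 is a doubling, and differences were tested with limma across 10025 genes with adjustment over all of them. A gene was called at an adjusted p under 0.05. One array stood apart from its group. Gene-by-gene differences between 2 γ+ arrays had an SD of 0.240 and 0.241 where replicate 2 was one of them and of 0.116 where it was not, against 0.131 to 0.140 for γ-, 0.117 to 0.164 for 23/24 and 0.127 to 0.162 for control pairs. Among the proteasome genes, γ+ replicate 2 was the lowest of the γ+ arrays for 25 of 37 (67.6%, against 53.2% of all genes tested). For 11 of 37 it differed by at least 0.25 from the mean of the other γ+ arrays (29.7%, against 27.9% of all genes). Values without that array are therefore given for the counts of subunits, and for many of the single differences printed below that moved when it was left out. Other differences that moved or changed their call are given with all arrays only. The deposited columns share exactly equal values in all 21 array pairs inside 3 blocks, γ+ alone, γ- alone, and 23/24 with control, and in 0 of the 45 pairs between blocks. Each block therefore seems to have gone through its own normalization, and only 23/24 and control share one; elsewhere the normalization and the group cannot be told apart.

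The first question was how the γ+ form of MEF2C changes proteasome transcripts relative to untreated cells. The subunits moved little beside the rest of the measured transcripts: 11 of the 37 tested rose in the γ+ cultures, 4 fell, and the other 22 did not pass the test. The largest rise was 0.43 ± 0.07 for Psme4 (SE, n = 3 per group), a 1.35-fold difference, and the largest fall was -0.38 ± 0.08 for Psmd14. Of all genes tested, 64.9% were called in this comparison, 26.2% as higher and 38.7% as lower, against 40.5% of the proteasome genes, 29.7% as higher and 10.8% as lower. The median absolute difference was 0.14 for the proteasome genes and 0.30 for all genes tested. The proteasome genes were also brighter, with a median log2 intensity of 9.37, against 7.27 for all genes tested, and the shares here are not matched for intensity. A difference of at least 0.5 was seen in 0 of 37 proteasome genes and in 29.5% of all genes. The 95% interval lay wholly between -0.25 and 0.25 for 16 of 37 proteasome genes (43.2%) and for 13.5% of all genes, a limit chosen after the values were seen. The groups of 3 arrays did not overlap for 19 of 37 (51.4%, against 66.6% of all genes).

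The median difference was 0.03 for the proteasome genes, against -0.07 for all genes tested. When the arrays were centred on their medians, 14 proteasome genes were higher and 1 lower, and with quantile normalization 17 were higher and 1 lower. Among all called genes the share that was higher was 40.4% as deposited, 51.2% after median centring and 48.0% with quantile normalization. Without γ+ replicate 2, 14 were higher and 3 lower (45.9%, against 66.7% of all genes called in that fit), and 13 genes were called both with and without it.

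**Figure D1:**
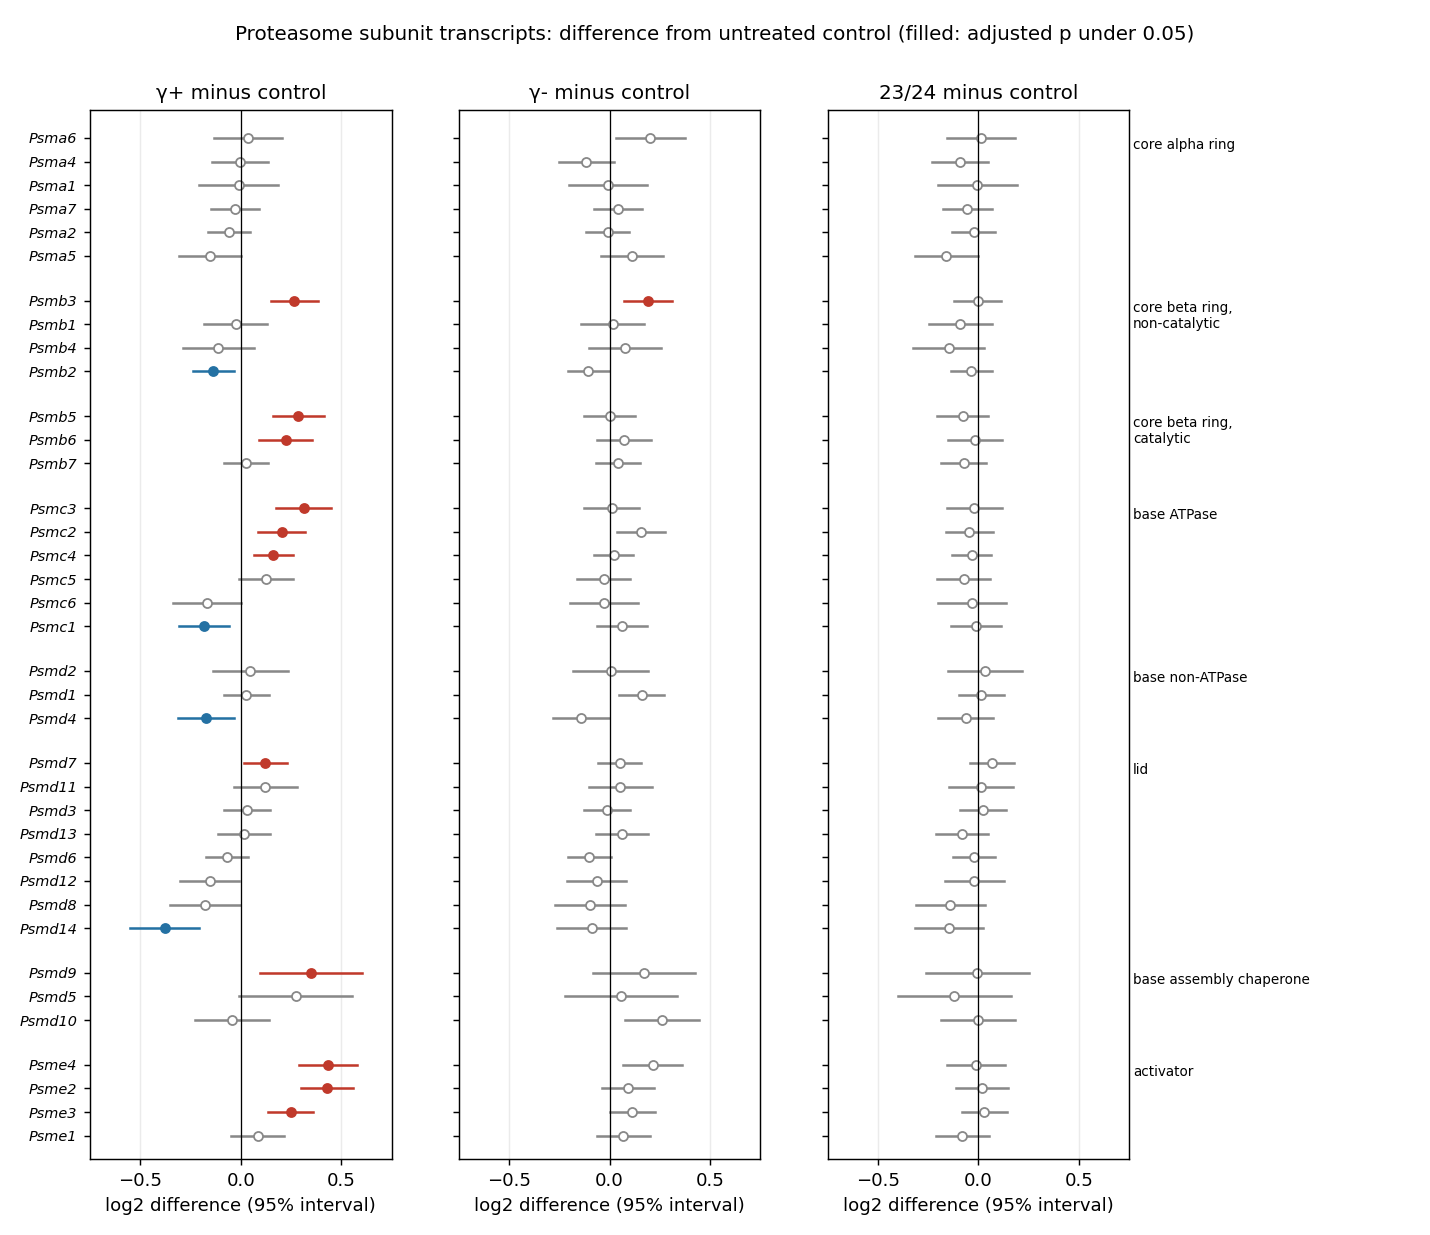
Differences from untreated control of the 37 tested proteasome genes (rows, grouped by role) in the γ+, γ- and 23/24 cultures; points are log2 differences, bars 95% intervals from limma with 3 arrays a group, filled red or blue points are genes with adjusted p under 0.05 that were higher or lower. The left panel holds 11 red and 4 blue points, the middle panel 1 red point and the right panel none.

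**Figure D2:**
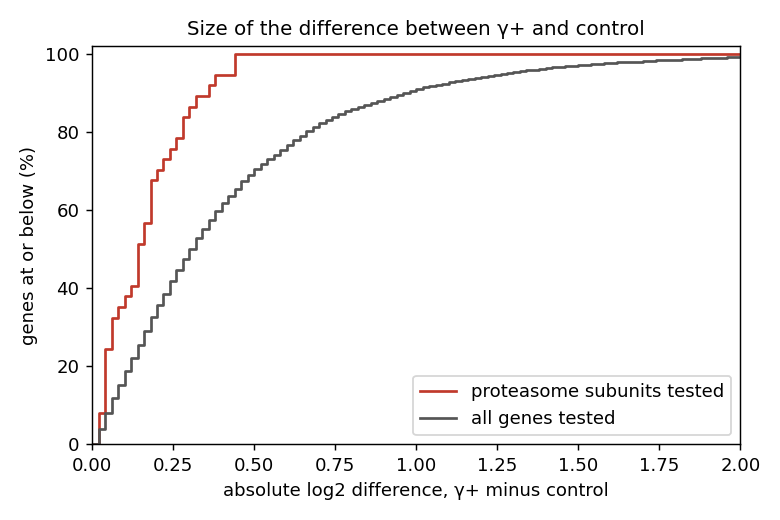
Share of genes (vertical axis, percent) whose absolute log2 difference between γ+ and control lies at or below the value on the horizontal axis, for the 37 tested proteasome genes (red) and all 10025 genes tested (grey). The red curve reaches 100% before 0.5, where 29.5% of all genes are still to come.

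The α ring, which gates the chamber, had 0 of its 6 measured genes called in the γ+ cultures, with differences of -0.15 (Psma5) to 0.04 (Psma6). At an unadjusted limma p under 0.05 there were also 0 calls, against 6777 of all 10025 genes. Psma5 read 8.08, 7.80 and 8.07 in γ+ cultures, below every control value (8.13, 8.11 and 8.17). Psma1 read 10.20, 9.71 and 10.18 in the 3 γ+ cultures, against 10.00, 10.06 and 10.06 in control. The γ+ values lie on both sides of the control values, with replicate 2 the low one. Without that array Psma1 was higher by 0.15 (limma adjusted p = 0.00311), so its result rests on whether that array is included. Psma2, Psma4 and Psma7 differed by -0.06, -0.0037 and -0.03. Without γ+ replicate 2 Psma4 differed by 0.08, with the sign turned, and Psma7 by -0.05, both without a call.

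Among the β subunits without an active site, Psmb3 rose and Psmb2 fell, while Psmb1 and Psmb4 did not pass the test (-0.03 and -0.11). Without γ+ replicate 2 Psmb1 differed by 0.08, with the sign turned, and Psmb4 by -0.0015, both again without a call. Psmb3 read 8.69, 8.66 and 8.74 in the γ+ cultures, against 8.45, 8.39 and 8.45 in control. The groups did not overlap, and the difference was 0.27 ± 0.06 (limma adjusted p = 5.2e-04). Psmb2, whose promoter stretch is shown above, read 10.77, 10.64 and 10.76 in the γ+ cultures and 10.89, 10.84 and 10.86 in control, a difference of -0.14 ± 0.05 (limma adjusted p = 0.0206). That call ended with median centring (limma adjusted p = 0.507) with quantile normalization (0.592), without control replicate 1 (0.0664) and with the 6 compared arrays alone (0.0717).

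Of the constitutive catalytic subunits, Psmb5 and Psmb6 rose in the γ+ cultures. Psmb5, the chymotrypsin-like subunit, read 8.49, 8.54 and 8.47 in γ+ and 8.25, 8.23 and 8.17 in control cultures. All γ+ values lay above all control values, and the difference of 0.29 ± 0.06 (limma adjusted p = 5.6e-04) was a 1.22-fold rise. Psmb6, the caspase-like subunit, had values of 8.96, 8.82 and 8.87 with γ+ and of 8.63, 8.60 and 8.75 without virus, again without overlap, and rose by 0.22 ± 0.06 (limma adjusted p = 0.00565). Psmb7, the trypsin-like subunit, had 10.90, 10.88 and 10.85 in γ+ cultures, against 10.95, 10.79 and 10.81 in control, with overlapping groups, a difference of 0.03 ± 0.05 and a 95% interval of -0.09 to 0.14.

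Their interferon-inducible counterparts, which the symbol rule leaves out, rose further in the same arrays. Psmb8, which replaces Psmb5, averaged 5.75 ± 0.08 in γ+ cultures and 5.22 ± 0.22 in control (SD, n = 3 each), a difference of 0.53 ± 0.12. Psmb9, the counterpart of Psmb6, averaged 6.65 ± 0.07 in γ+ and 5.92 ± 0.06 in control cultures, a difference of 0.73 ± 0.08, and Psmb10, the counterpart of Psmb7, averaged 6.89 ± 0.07 in γ+ and 6.35 ± 0.13 in control cultures, a difference of 0.54 ± 0.09. In all 3 the γ+ arrays lay above the control arrays, with limma adjusted p of 8.9e-04, 8.0e-07 and 4.0e-05. Of all genes tested, 66.6% did not overlap in this comparison, 64.9% were called (26.2% as higher) and 29.5% differed by at least 0.5. Without γ+ replicate 2 the differences were 0.57, 0.75 and 0.58. The difference between the changes of a constitutive subunit and its counterpart was not tested. The probe sets of the inducible subunits are dim, with all control values between 5.07 and 6.48.

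**Figure D3:**
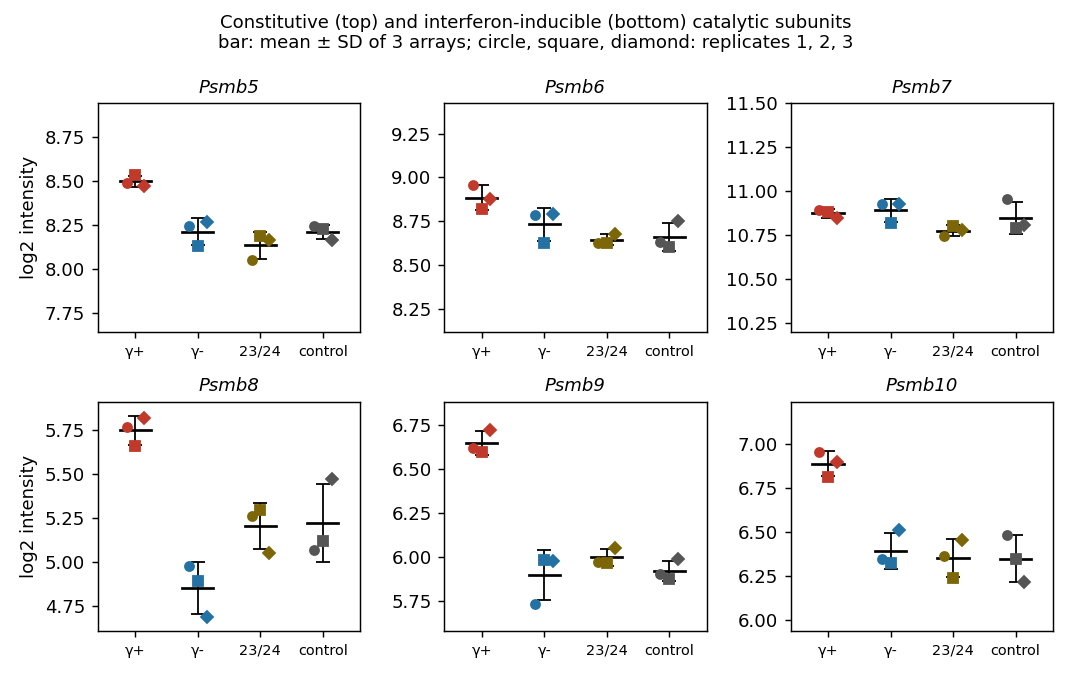
Log2 intensity on each array (points, with circle, square and diamond for replicates 1, 2 and 3) of the constitutive catalytic subunits Psmb5, Psmb6 and Psmb7 (top) and the interferon-inducible Psmb8, Psmb9 and Psmb10 (bottom) in γ+, γ-, 23/24 and control cultures; bars are means ± SD, and every vertical axis spans the same log2 range. The γ+ arrays stand above the control arrays for all of these genes except Psmb7.

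The ATPases of the base, which form a ring of 6 different subunits, moved in both directions. Psmc2, Psmc3 and Psmc4 rose in the γ+ cultures, Psmc1 fell, and Psmc5 and Psmc6 did not pass the test (0.13 ± 0.06 and -0.17 ± 0.08). Without γ+ replicate 2 Psmc5 was called, at 0.16 (limma adjusted p = 0.0304), and Psmc6 differed by -0.05 without a call. Psmc3 read 8.37, 8.32 and 8.44 in γ+ cultures and 8.13, 7.96 and 8.09 in control, with no overlap and a difference of 0.31 ± 0.06 (limma adjusted p = 4.6e-04). Psmc2 rose by 0.20 ± 0.06 (values of 10.17, 10.19 and 10.17 in γ+, against 10.07, 9.96 and 9.89 in control) and Psmc4 by 0.16 ± 0.05 (10.06, 10.10 and 10.05 in γ+, against 9.93, 9.91 and 9.87 in control), with limma adjusted p of 0.00437 and 0.00554. Psmc1 read 9.80, 9.63 and 9.78 in γ+ cultures, against 9.81, 9.97 and 9.98 in control, just short of overlapping, a difference of -0.18 ± 0.06 (limma adjusted p = 0.0116). The fall of Psmc1 lost its call under median centring (limma adjusted p = 0.254), under quantile normalization (0.185) and without control replicate 2 (0.0556) or 3 (0.0516), and with the 6 compared arrays alone (0.0522).

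The other base subunits include Psmd4, a receptor for ubiquitin chains, and the large scaffold proteins Psmd1 and Psmd2. Psmd4 read 8.33, 8.18 and 8.28 in γ+ cultures and 8.44, 8.53 and 8.33 in control and changed by -0.17 ± 0.06 (limma adjusted p = 0.0276). This call ended under median centring (limma adjusted p = 0.364), under quantile normalization (0.0559) and without control replicate 1 or 2 (0.0641 and 0.139) or γ+ replicate 2 (0.0685), and with the 6 compared arrays alone (0.0721). Psmd2 had 10.47, 10.02 and 10.47 in γ+ cultures, against 10.22, 10.31 and 10.29 in control: γ+ replicates 1 and 3 lay above every control array and replicate 2 below every one. With all arrays the difference was 0.05 ± 0.09, and without γ+ replicate 2 it was 0.19 (limma adjusted p = 4.7e-04). Psmd1 differed by 0.03 ± 0.05, with a 95% interval of -0.08 to 0.14, and by 0.05 without γ+ replicate 2.

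Of the 8 measured lid subunits, Psmd14 fell, Psmd7 rose, and Psmd3, Psmd6, Psmd8, Psmd11, Psmd12 and Psmd13 did not pass the test, with differences of -0.18 (Psmd8) to 0.12 (Psmd11). Psmd14, the deubiquitinase of the lid, read 8.74, 8.42 and 8.75 in γ+ cultures and 9.06, 8.91 and 9.07 in control. Every γ+ value lay below every control value, and the difference of -0.38 ± 0.08 (limma adjusted p = 6.2e-04) was the largest fall among the subunits. It stayed called under all 16 alternatives, ranging from -0.44 to -0.26, with -0.27 without γ+ replicate 2. Psmd7, its partner in the lid, read 9.65, 9.62 and 9.65 with γ+ and 9.58, 9.46 and 9.51 in control, a rise of 0.12 ± 0.05 (limma adjusted p = 0.0440) that lost its call under 8 of 16 alternatives, at an adjusted p of up to 0.170.

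Psmd5, Psmd9 and Psmd10 are chaperones that assemble the base and are not part of the finished particle. Psmd9 read 8.54, 9.19 and 8.68 in γ+ cultures, against 8.61, 8.35 and 8.40 in control, with overlapping groups and replicate 2 far above the others. It rose by 0.35 ± 0.12 (limma adjusted p = 0.0179), but without γ+ replicate 2 the difference was 0.16 (adjusted p = 0.0612). The call also ended without control replicate 2 (0.0740) or 3 (0.0572) and with the 6 compared arrays alone (0.0658). Psmd5 showed the opposite: 8.43, 7.81 and 8.54 in γ+ cultures and 7.89, 8.03 and 8.05 in control, a difference of 0.27 ± 0.13 (limma adjusted p = 0.0808) with all arrays and 0.50 (adjusted p = 3.2e-06) without replicate 2. Psmd10 changed by -0.04 ± 0.09, with values of 5.95, 5.85 and 5.94 in γ+, against 5.83, 6.08 and 5.96 in control.

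The activators, which cap the barrel in place of the regulatory particle, held the largest rises. Psme4, which encodes PA200, read 10.12, 9.86 and 10.14 in γ+ cultures and 9.53, 9.61 and 9.67 in control, a difference of 0.43 ± 0.07 (limma adjusted p = 3.7e-05). Psme2, the β chain of the interferon-inducible PA28αβ, read 9.48, 9.29 and 9.53 in γ+ cultures, against 8.98, 8.99 and 9.05 in control, and rose by 0.43 ± 0.06 or 1.35-fold (limma adjusted p = 1.2e-05). In neither did the groups overlap, and without γ+ replicate 2 the rises were 0.52 and 0.50. Psme3, which encodes the nuclear PA28γ, rose by 0.25 ± 0.05 (limma adjusted p = 6.4e-04), with 10.14, 10.15 and 10.21 in γ+ cultures and 9.84, 9.94 and 9.97 in control. Psme1, the partner chain of Psme2, read 10.59, 10.53 and 10.51 in γ+ cultures and 10.60, 10.33 and 10.44 in control; the groups overlapped, the difference was 0.09 ± 0.06 and its 95% interval -0.05 to 0.22.

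**Figure D4:**
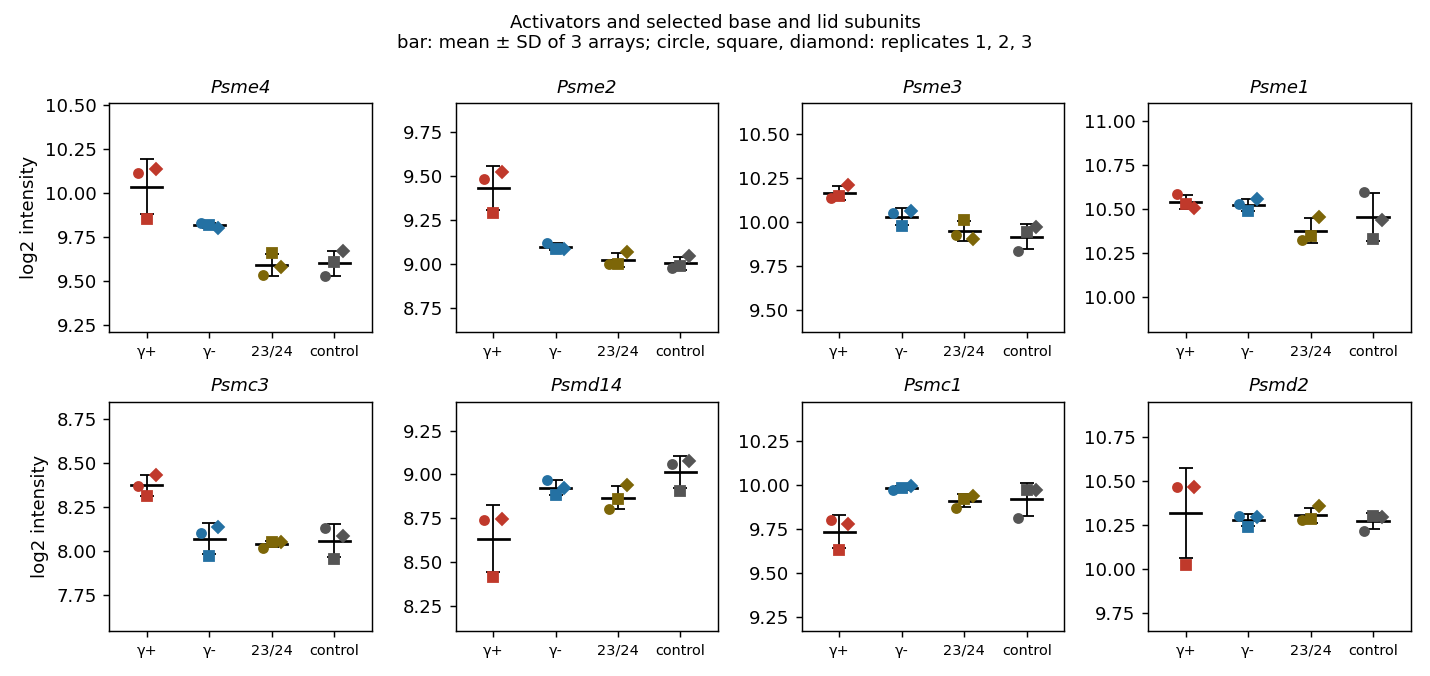
Log2 intensity on each array of the activators Psme4, Psme2, Psme3 and Psme1 (top) and of Psmc3, Psmd14, Psmc1 and Psmd2 (bottom), in γ+, γ-, 23/24 and control cultures; symbols mark replicates 1 (circle), 2 (square) and 3 (diamond), bars are means ± SD of 3 arrays, and all vertical axes span the same log2 range. For Psmd2 the γ+ square lies at 10.02, apart from the other γ+ points at 10.47.

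Several subunits have a second probe set, which was not used above. For Psmb6, Psmc4 and Psme2 it gave a γ+ minus control difference of the same sign (0.42, 0.36 and 0.39), also for Psmd8 and Psme1 (-0.18 and 0.23). For Psma6 it gave 0.41, against 0.04 for the one used, but at a mean of 4.12 it lay below the intensity filter and was not tested. For Psme3 the second probe set differed by 0.05 with a mean of 7.02 over the 12 arrays, against 0.25 for the brighter one, so the rise of Psme3 rests on 1 of its 2 probe sets. RefSeq names 42 pseudogenes after 17 of the 38 subunits, and probe sets may take up signal from such copies.

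Relative to control, the γ- form, which lacks the γ segment, left 36 of the 37 subunits without a call. Psmb3 rose, with 8.69, 8.54 and 8.64 in γ- cultures and 8.45, 8.39 and 8.45 in control, a difference of 0.19 ± 0.06 (limma adjusted p = 0.0490), and this call was lost in each of the 6 fits that left out an array of either group. The proteasome genes were thus called at 2.70%, against 6.94% of all genes tested (3.06% higher and 3.88% lower). The groups did not overlap for 12 of 37, against 33.4% of all genes. The median absolute difference was 0.07 for the proteasome genes and 0.09 for all genes, and the 95% interval lay within 0.25 of zero for 23 of 37 (62.2%, against 41.5% of all genes).

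Other subunits stood above control in the γ- cultures without passing the test. Psme4 read 9.83, 9.82 and 9.80 in γ- cultures, against 9.53, 9.61 and 9.67 in control, without overlap, a difference of 0.21 ± 0.07 (limma adjusted p = 0.0707). Psmd10, the dim assembly chaperone, read 6.26, 6.17 and 6.22 with γ- and 5.83, 6.08 and 5.96 in control, also without overlap (0.26 ± 0.09, limma adjusted p = 0.0796). These p-values share the spread of the γ+ arrays. Without γ+ replicate 2 in the fit, 7 subunits were called in γ- cultures (18.9%, against 16.6% of all genes): Psmd10, Psme4, Psma6, Psmb3, Psmd1 and Psmc2 higher and Psmb2 lower, the adjusted p being 0.0426 for Psmd10 and 0.00314 for Psme4. The catalytic subunits Psmb5, Psmb6 and Psmb7 differed from control by 0.00054, 0.07 and 0.04. Of the inducible subunits, Psmb8 averaged 4.85 ± 0.15 in γ- cultures and 5.22 ± 0.22 in control (-0.37 ± 0.12, limma adjusted p = 0.0694), and Psmb9 and Psmb10 differed by -0.02 and 0.05.

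The 23/24 form gave no called subunit against control, in the one comparison whose groups lie in the same block of exactly equal values. By limma 0 of 37 subunits passed, as did 0 of all 10025 genes (0%), and at an unadjusted p under 0.05 the counts were 1 of 37 and 899 of 10025. With array weights, 0 subunits and 220 genes were called, and without γ+ replicate 2 in the shared spread 0 subunits and 0.579% of all genes. The subunit with an unadjusted p under 0.05 was Psma5, with 8.004, 7.905 and 8.028 in the 23/24 cultures, against 8.13, 8.11 and 8.17 in control, a difference of -0.16 ± 0.07 (limma adjusted p = 0.551). The 95% interval lay within 0.25 of zero for 31 of 37 subunits (83.8%, against 52.1% of all genes). The groups did not overlap for 5 of 37 (13.5%, against 17.9% of all genes), and in all 5, Psma4, Psma5, Psmb1, Psmb4 and Psmc5, the 23/24 arrays were the lower ones. Over all genes tested, the 23/24 arrays were also the lower ones for 1221 of the 1792 genes without overlap. The median difference was -0.02 for the subunits and -0.02 for all genes. Psmb5 differed by -0.08 ± 0.06, Psmd14 by -0.15 ± 0.08, Psme2 by 0.02 ± 0.06 and Psme4 by -0.01 ± 0.07.

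Setting γ+ directly against γ-, which differ in the γ segment, 8 subunits were higher and 5 lower of 37 (35.1%, against 64.2% of all genes, 26.7% higher and 37.5% lower). The counts were 8 and 3 after median centring (3091 and 3059 of all genes) and 13 and 4 after quantile normalization (3080 and 3411). Without γ+ replicate 2 they were 12 and 4 (43.2%, against 66.2% of all genes). The groups did not overlap for 14 of 37, against 67.1% of all genes. Psme2 was higher in the γ+ cultures by 0.34 ± 0.06 (limma adjusted p = 1.4e-04), with 9.48, 9.29 and 9.53 there and 9.12, 9.09 and 9.09 in γ- cultures. Psmc3 and Psmb5 were higher by 0.30 ± 0.06 and 0.28 ± 0.06 (limma adjusted p = 6.4e-04 and 5.7e-04), and Psme4 by 0.22 ± 0.07 (adjusted p = 0.0106). The Psme4 difference missed the threshold without γ+ replicate 1 (0.0505) or 3 (0.0580).

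Lower in γ+ than in γ- were Psmd10, Psmd14, Psma5, Psmc1 and Psmd1. Psmd1 differed by -0.13 ± 0.05 (limma adjusted p = 0.0388), a call lost under 9 of 16 alternatives, among them median centring (-0.06, adjusted p = 0.484), quantile normalization (-0.0052, 0.927) and leaving out γ+ replicate 2 (-0.11, 0.0554). Psmd10 read 5.95, 5.85 and 5.94 in γ+ and 6.26, 6.17 and 6.22 in γ- cultures, a difference of -0.31 ± 0.09 (limma adjusted p = 0.00577). Psma5, an α ring subunit, read 8.08, 7.80 and 8.07 with γ+ and 8.26, 8.29 and 8.19 with γ-, a difference of -0.27 ± 0.07 (adjusted p = 0.00477, and 0.0504 after median centring). Psmd14 and Psmc1 changed by -0.29 ± 0.08 and -0.25 ± 0.06 (limma adjusted p = 0.00499 and 0.00151). Leaving out γ+ replicate 2, Psmd14 differed by -0.18 (limma adjusted p = 0.0101) and Psma5 by -0.17 (0.0121). For Psmd10 and Psma5 the γ- arrays lay highest of the 4 groups, whereas for Psmd14 the γ+ arrays lay lowest. Psmb8, Psmb9 and Psmb10 were higher in γ+ than in γ- by 0.90 ± 0.12, 0.75 ± 0.08 and 0.49 ± 0.09.

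Against its 23/24 variant, the γ+ form showed 13 subunits higher and 2 lower, Psmd14 and Psmc1 (40.5%, against 65.8% of all genes, 28% higher and 37.9% lower). The groups did not overlap for 18 of 37, against 67.4% of all genes. Median centring moves the median of all genes in this comparison by 0.14, from -0.07 as deposited to 0.07. After it 19 subunits were higher and 0 lower, against 3703 and 2628 of all genes (2804 and 3795 as deposited). Quantile normalization gave 17 and 1, against 3198 and 3349 of all genes. Leaving out γ+ replicate 2 gave 17 and 1 (48.6%, against 68.4% of all genes). The median subunit stood 0.13 above the median of all genes, a gap that centring cannot change. Psme4 read 10.12, 9.86 and 10.14 in γ+ and 9.54, 9.66 and 9.58 in 23/24 cultures (0.45 ± 0.07, limma adjusted p = 2.8e-05). Psme2 was higher by 0.41 ± 0.06 and Psmb5 by 0.36 ± 0.06, and Psmb5 read 8.49, 8.54 and 8.47 in γ+, against 8.05, 8.19 and 8.17 in 23/24 cultures (limma adjusted p = 1.9e-05 for Psme2 and 5.8e-05 for Psmb5). Psmd5 read 8.43, 7.81 and 8.54 in γ+ and 7.77, 7.88 and 7.95 in 23/24 cultures, overlapping through γ+ replicate 2 alone (0.39 ± 0.13, limma adjusted p = 0.0157). Without that array the Psmd5 difference was 0.62, and the call ended without γ+ replicate 1 (0.31, adjusted p = 0.0709) or 3 (0.25, 0.0970), without 23/24 replicate 1 (0.0640) and with the 6 compared arrays alone (0.0599). Psmd14 was lower in γ+ than in 23/24, with a difference of -0.23 ± 0.08 (limma adjusted p = 0.0182). This call ended under median centring (0.370), with the 6 compared arrays alone (0.0556), and without γ+ replicate 2 (0.0646) or 23/24 replicate 3 (0.0735). The Psmc1 difference of -0.17 ± 0.06 (limma adjusted p = 0.0153) ended under median centring (0.664), quantile normalization (0.138) and without 23/24 replicate 3 (0.0528). Psmb8, Psmb9 and Psmb10 were higher in γ+ than in 23/24 cultures by 0.54 ± 0.12, 0.65 ± 0.08 and 0.54 ± 0.09. The comparisons of γ+ with control, with γ- and with 23/24 share the γ+ arrays and are not independent of each other.

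Between γ- and 23/24, 3 subunits were higher in γ- and 0 lower (8.11%, against 8.1% of all genes, 4.16% higher and 3.94% lower), namely Psma5, Psmc2 and Psmb3. Psma5 read 8.26, 8.29 and 8.19 in γ- cultures, against 8.004, 7.905 and 8.028 in 23/24 cultures, a difference of 0.27 ± 0.07 (limma adjusted p = 0.0337). Psmc2 read 10.19, 10.08 and 10.12 with γ- and 9.86, 9.95 and 9.98 with 23/24 (0.20 ± 0.06, limma adjusted p = 0.0368), and Psmb3 was higher by 0.19 ± 0.06 (adjusted p = 0.0423). The groups did not overlap for 19 of 37, against 36.2% of all genes. Each of the fits that left out 1 of the 6 arrays kept at most 1 of these calls. With γ+ replicate 2 left out of the shared spread, 8 subunits were called, all higher in γ- (21.6%, against 18.3% of all genes).

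Over the 4 groups together, the moderated F test called 16 of the 37 subunits (43.2%, against 70.3% of all genes). The group means of a subunit spanned a median of 0.18 and at most 0.45, against a median of 0.39 over all genes tested, while the pooled SD within a group was 0.07 at the median subunit and 0.10 at the median gene. Psmb11, the thymus subunit, averaged 4.06 ± 0.05, 4.27 ± 0.41 and 4.40 ± 0.23 in the γ+, γ- and 23/24 cultures and 4.24 ± 0.17 in control (SD, n = 3 each). It lay below the intensity filter of 4.78 and was the one subunit not tested.

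The genes that assemble, supply and regulate the proteasome were followed in the γ+ cultures from lists of named genes. Over these 6 lists 23 of 46 tested genes were called against control (50%, against 64.9% of all genes), and without γ+ replicate 2 it was 29 of 46 (63%, against 66.7%). Of 8 assembly factors 5 were tested, and 1, Akirin2, which carries proteasomes into the nucleus, rose (0.35 ± 0.06, limma adjusted p = 5.6e-05). This list was called at 20%, against 64.9% of all genes, and its median was 0.05. Pomp, the maturation factor of the barrel, differed by 0.05 ± 0.06. Psmg4, a chaperone of the α ring, differed by -0.20 ± 0.15 from control, and from γ- cultures by -0.67 ± 0.15 (limma adjusted p = 0.00103). Its γ+ values were 6.16, 5.42 and 6.15, and without the low replicate 2 the differences were 0.05 from control, with the sign turned, and -0.43 from γ- cultures (limma adjusted p = 7.6e-04). Among 11 tested ubiquitin receptors, deubiquitinases and regulators, 3 rose and 3 fell (54.5% called, against 64.9% of all genes; median 0.10). The shuttle factors Ubqln4 and Ubqln2 rose by 0.67 ± 0.07 and 0.52 ± 0.11 (limma adjusted p = 6.3e-07 and 6.1e-04), the rise of Ubqln2 being 0.33 without γ+ replicate 2, and Zfand5, a proteasome-binding zinc finger protein, changed by -0.65 ± 0.12 (adjusted p = 1.3e-04). Sem1, the smallest lid subunit, whose symbol lies outside the rule, changed by -0.26 ± 0.08 (limma adjusted p = 0.0126). Without γ+ replicate 2 this was -0.14 (0.0389), and the call ended under median centring (0.124) and without control replicate 1 (0.0555).

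Nfe2l1, the gene of the Nrf1 factor named above, fell in the γ+ cultures by 0.26 ± 0.06 (limma adjusted p = 0.00218), with 8.76, 8.63 and 8.66 there, against 8.95, 8.93 and 8.93 in control. This call ended under median centring (-0.17, adjusted p = 0.0802). Ngly1, which encodes the glycanase that processes Nrf1, changed by -0.40 ± 0.11, and the small Maf partner Mafk and the repressor Bach1 by -0.93 ± 0.07 and -0.68 ± 0.06. In all, 4 of 9 genes of this list fell and 2, Mafg and Keap1, rose (66.7% called, against 64.9% of all genes; median -0.11). Of 10 tested genes of the p97 segregase and its cofactors, which extract ubiquitin-tagged proteins, 3 rose and 2 fell (50% called, against 64.9% of all genes; median 0.03). With γ+ replicate 2 left out, 5 rose and 4 fell (90% called, against 66.7% of all genes in that fit). Vcp itself differed by 0.08 ± 0.08, and without that array by 0.20 (limma adjusted p = 8.2e-04). Of the 6 ubiquitin and E1 genes 2 were tested, and Uba6, an activating enzyme, rose by 0.46 ± 0.06 (limma adjusted p = 7.4e-06). The COP9 signalosome, a complex built like the lid, had 4 of 9 subunits higher and 0 lower (44.4% called, against 64.9% of all genes; median 0.06), Gps1 by 0.40 ± 0.06 and Cops6 by 0.38 ± 0.05. In the γ- cultures 3 of the 46 tested genes of these lists were called against control (6.52%, against 6.94% of all genes), Mafg (0.30 ± 0.08) and Nsfl1c (0.29 ± 0.07) higher and Mafk (-0.36 ± 0.07) lower, and in the 23/24 cultures 0 were called (0% of all genes). The calls of Mafg and Nsfl1c were lost in each fit that left out 1 of the 6 arrays, with adjusted p of up to 0.143 and 0.109.

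Markers of the cell types in the culture moved in the γ+ group while the proteasome genes changed little. In γ+ against control 64.9% of all genes tested were called, 38.7% as lower, and the marker counts below stand beside that share. The summed linear signal of 6 cardiomyocyte markers was 12765 to 13390 in γ+ cultures, against 26613 to 27179 in control, and all 6 were called lower. That of 8 fibroblast markers was 3099 to 3346 in γ+, against 8956 to 9154 in control, with all 8 lower. The 4 endothelial markers summed to 199 to 231 in γ+ and 333 to 349 in control, and the 4 smooth muscle markers to 10608 to 11135 in γ+ and 17168 to 17501 in control, with all 4 lower in each list. Of 5 macrophage or leukocyte markers 3 were tested and 2 were lower (3 without γ+ replicate 2), with sums of 339 to 373 in γ+, against 520 to 528 in control. The γ- cultures had cardiomyocyte sums of 27682 to 27930, above control, and the 23/24 cultures of 26740 to 27331. The γ- sums lay below control for the fibroblast (8442 to 8517), endothelial (295 to 315) and macrophage or leukocyte markers (473 to 513). For smooth muscle they lay within the control range. Of single markers in γ- cultures, 1 cardiomyocyte marker was called higher, and 1 fibroblast and 1 endothelial marker lower (6.94% of all genes called). The 23/24 endothelial sums, 319 to 328, lay below control, and the other 23/24 sums overlapped it. The part of cell composition in the proteasome results was not tested, and in such bulk samples fewer cells of a type and less RNA per cell cannot be told apart.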

How the data were processed

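RNA from 12 cultures, 3 per group, was measured on Affymetrix arrays, 1 array each. The deposited values are on a log2 scale, judged from their range. MAS5 is listed without a version in the submitters' processing notes, and neither the log base nor the normalization is given in the sources used here. GEO's platform annotation gave 15209 of 28826 probe sets a single gene symbol, 306 several and 13311 none. Each gene was represented by its brightest single-gene probe set. Genes with a mean over the 12 arrays under the 40th percentile of all probe sets (log2 4.78) were left out, which kept 10025 genes. No further normalization was applied. Group means were fitted with limma 3.58.1 in R 4.3.3 (12 arrays, 8 residual degrees of freedom, intensity trend), with Benjamini-Hochberg adjustment over all genes within each comparison, after the procedure was tested on simulated data. Alternatives were median centring, quantile normalization, other filters, the mean over probe sets, no trend, robust moderation, array weights, a replicate block, the compared arrays alone and leaving out each array. The subunits and gene lists were chosen with earlier results of these data known. All subunits were eligible to be named, by role, and of the other lists the genes that were called or define the list. Each sample title calls its replicate biological, but none says whether the cells were isolated separately. The p-values therefore measure the spread between these cultures, which may still be technical. The number of arrays limits the precision.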

Additional observations from a re-analysis of the deposited data

How the results depend on the processing

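Of the subunits called in γ+ against control, 10 stayed called under all 16 alternatives (Psmb3, Psmb5, Psmb6, Psmc2, Psmc3, Psmc4, Psmd14, Psme2, Psme3 and Psme4), and no difference changed sign while called. The count of 15 ranged from 11 to 17 when single arrays were left out, that of 13 for γ+ against γ- from 10 to 16, and that of 15 for γ+ against 23/24 from 13 to 18; 23/24 against control stayed at 0. For γ- against control the count of 1 was 0 after median centring, with the replicate block, with no intensity trend and with a 60th-percentile filter, 0 to 0 when single arrays were left out, 3 with the 6 compared arrays alone, and 7 with array weights. For γ- against 23/24 the count of 3 was 5 after median centring, 1 without the trend and with the replicate block, 0 to 1 when single arrays were left out, 11 with the 6 arrays alone and 12 with array weights. Leaving γ+ replicate 2 out of the pooled spread, chosen after seeing the data, gave 7 and 8 for these comparisons. The F test called 16, against 29 with array weights and 26 without γ+ replicate 2. With the replicate block the counts were 14 for γ+ against control, 11 for γ+ against γ-, 15 for γ+ against 23/24 and 13 by the F test. Over all genes the replicate block gave 6401, 6326 and 6482 calls in these comparisons, against 6509, 6433 and 6599 in the main fit. The share of all genes called by the F test is given for the main fit only. Replicate numbers did not pair the arrays: correlations of same-numbered deviations were -0.223 to 0.124 over 18 pairs, and 4 of 36 correlated best with their own number. Over all genes, 696 calls for γ- against control became 436 after median centring, 1363 with no filter, 425 with the 60th-percentile filter, 1745 with array weights, 1373 with 6 arrays alone, 267 to 343 without single arrays and 1665 without γ+ replicate 2. For γ- against 23/24, 812 became 1641 with no filter, 488 with the 60th-percentile filter, 2528 with array weights, 1760 with 6 arrays alone, 263 to 529 without single arrays and 1838 without γ+ replicate 2. For 23/24 against control, 0 became 1 after quantile normalization, 220 with array weights and 58 without γ+ replicate 2. For genes outside the subunits the alternatives were run after seeing the data. The causes of these shifts were not tested.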
